A study of Homo sapiens with 6 samples.

Results

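The cathepsin genes are described here in SW480 cells, a long-established human colorectal adenocarcinoma line, given Amuc_0904 (3 libraries) or buffer (3 libraries). Both groups carry the genotype label WT, and the labels state no dose, no exposure time and no preparation of Amuc_0904. Names with the prefix Amuc_ are used for genes of Akkermansia muciniphila, a mucus-dwelling gut bacterium. Separate cultures are not mentioned in the labels, and the p-values below therefore reflect the spread among these libraries, which may be technical. In bulk libraries, fewer cells of a type and less RNA per cell cannot be told apart. The members were the rows of the gene table named CTSA, CTSB, CTSC, CTSD, CTSF, CTSH, CTSL, CTSO, CTSS and CTSZ, which are 10 of 60664 rows. The family was selected on the TPM differences of this same comparison, with that of CTSS among the values seen. Levels and differences of the members are therefore a description, and the p-values, adjusted over the whole table, are not independent evidence.

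Cathepsins are proteases of the endosome and lysosome that are made as inactive precursors and mature as the compartment turns acidic. Most are cysteine proteases of the papain type, while cathepsin D is an aspartic protease and cathepsin A is a serine carboxypeptidase. They degrade internalised and autophagic protein, cut the invariant chain and antigens for MHC class II, and, when secreted by tumour cells, cleave extracellular matrix and cell adhesion proteins. Cystatins and stefins are their natural inhibitors.

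Values are TPM, a unit that divides reads by transcript length and rescales each library to 1 fixed total, so levels of different genes can be compared. A fold change is Amuc_0904 minus buffer on the log2(TPM + 1) scale, fitted with limma over the 14421 genes with at least 1 TPM in at least 3 libraries. The threshold is a Benjamini-Hochberg adjusted p of 0.05 over all of them. Of the 10 members, 8 were tested, and each of these was above 1 TPM in all 6 libraries. CTSF and CTSO were not tested. In treated as in buffer cells the epithelial markers EPCAM, KRT8, KRT18 and KRT19 were among the abundant transcripts (at least 181 TPM in every library). The intestinal markers KRT20 and CDH17 stayed at or below 0.25 TPM. The 9 epithelial and colorectal markers also included CDX2 and VIL1, and 6 of the 9 were tested, so not all intestinal markers were this low. The 9 epithelial and colorectal markers summed to between 7092 and 7380 TPM in treated and between 7907 and 8149 TPM in buffer libraries. All 6 tested ones had log2 fold changes below 0. Their median was -0.20, and -0.11 after GC removal, against -0.06 and -0.0017 over all genes fitted. Of the 6, 5 were lower without overlap of the groups, against 20.1% of all tested genes. CDH1 alone passed the threshold, while 0.999% of all tested genes passed as lower. The part of this difference in the results below was not tested.

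Cathepsin S was the member with the largest difference between the groups. CTSS, which encodes a cysteine endopeptidase that trims the invariant chain in antigen-presenting cells and stays active at neutral pH, had 24.9, 24.8 and 27.4 TPM in Amuc_0904 replicates 1 to 3, against 13.0, 12.5 and 12.7 TPM in buffer replicates 1 to 3. All treated libraries lay far above all buffer libraries, and the libraries within each group lay close together. The mean was 25.7 ± 1.45 TPM in treated cells and 12.7 ± 0.254 TPM in buffer cells (SD, n = 3 each), a ratio of 2.02. The log2 fold change was 0.96 (SE 0.08, 95% interval 0.78 to 1.13, limma adjusted p = 0.0026), and 45 tested genes had a larger positive one. CTSS rose under each of the alternatives in the closing section, with log2 fold changes between 0.85 and 1.04. Its highest adjusted p was 0.0495, with Amuc_0904 replicate 3 and buffer replicate 2 both left out.

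CTSS is also known as a transcript of macrophages and other antigen-presenting cells, so the markers of such cells are given beside it. Of 12 macrophage and monocyte markers, 6 were listed at 0 in every library (CD163, TYROBP, AIF1, MRC1, C1QA and C1QB), and the pan-leukocyte marker PTPRC was also at 0 throughout. The summed level of the 12 was between 5.59 and 6.68 TPM in treated libraries and between 3.30 and 3.70 TPM in buffer libraries. Only CD14 and CD68 of the 12 were high enough to be tested. CSF1R, FCER1G, LYZ and ITGAM, neither tested nor at 0 throughout, also enter the sums. CD14, the lipopolysaccharide co-receptor, had 1.06, 2.24 and 1.43 TPM in treated libraries and 1.14, 1.44 and 1.66 TPM in buffer libraries, and its groups overlapped (log2 fold change 0.07, limma adjusted p = 0.86). CD68, a lysosomal membrane glycoprotein that other cells also make, had 3.11, 2.33 and 3.08 TPM in treated libraries and 1.68, 1.10 and 1.48 TPM in buffer libraries (log2 fold change 0.67, limma adjusted p = 0.077). The 7 lymphocyte and leukocyte markers together held at most 0.87 TPM in any library, the 5 dendritic markers at most 0.03 TPM and the 4 endothelial markers at most 0.80 TPM. The 7 fibroblast markers summed to between 1.71 and 2.27 TPM in treated and between 2.32 and 3.77 TPM in buffer libraries, with COL1A1, the single tested one, at a log2 fold change of -0.42 (limma adjusted p = 0.26). The part of such cells in the CTSS difference was not tested.

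**Figure D1:**
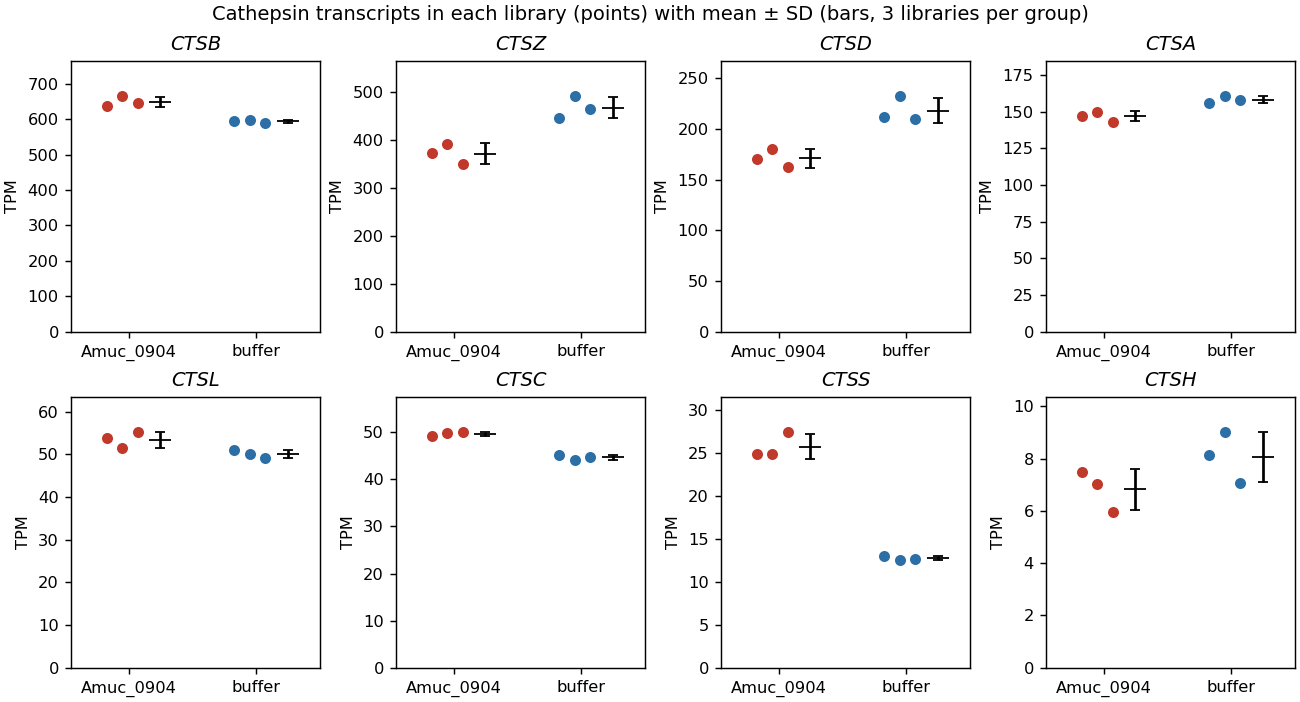
TPM of the 8 tested cathepsin genes in each library (points; Amuc_0904 in red, buffer in blue), with the mean and SD of 3 libraries per group as bars; each vertical axis starts at 0. CTSS averages 25.7 TPM in treated cells and 12.7 TPM in buffer cells, CTSB, CTSC and CTSL lie slightly higher in treated libraries, and CTSZ, CTSD and CTSA lie lower.

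CTSB, CTSC and CTSL, further cysteine cathepsin genes, lay higher in every treated library than in any buffer library, but by far less than CTSS, and none of these passed the threshold. CTSB, which encodes an endopeptidase that also removes dipeptides from carboxyl ends, was the most abundant member, with 637, 664 and 646 TPM in treated libraries and 594, 597 and 589 TPM in buffer libraries. The mean was 9.32% higher in treated cells (log2 fold change 0.13, SE 0.05, limma adjusted p = 0.19). CTSC encodes a dipeptidyl peptidase that activates the serine proteases of immune cell granules, granzymes among them. It had 49.2, 49.9 and 49.97 TPM in treated libraries and 45.3, 44.0 and 44.7 TPM in buffer libraries, with a log2 fold change of 0.15 (SE 0.06, limma adjusted p = 0.19). CTSL, a lysosomal endopeptidase gene, had 53.8, 51.4 and 55.1 TPM in treated libraries and 51.0, 50.1 and 49.2 TPM in buffer libraries, and its treated and buffer ranges were separated by only the gap between 51.4 and 51.0 TPM (log2 fold change 0.09, 95% interval -0.05 to 0.23). The unadjusted limma p of CTSB and CTSC was 0.031 each, and their 95% intervals began at 0.01 and 0.02. Such values were common, since 3001 of the 14421 tested genes had an unadjusted p under 0.05.

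CTSD and CTSZ lay lower in treated cells by nearly the same amount. CTSD, which encodes the aspartic endopeptidase of the lysosome, had 170, 180 and 162 TPM in treated libraries, against 212, 232 and 210 TPM in buffer libraries. No treated library reached the lowest buffer library. The mean was 171 ± 8.99 TPM in treated and 218 ± 12.3 TPM in buffer cells (SD, n = 3 each), and CTSD fell by 0.35 on the log2 scale (SE 0.07, limma adjusted p = 0.048). This call rested on each single library: leaving out any 1 of the 6 gave adjusted p between 0.081 and 0.17, with log2 fold changes from -0.39 to -0.30. CTSZ, which encodes cathepsin Z (also called cathepsin X), a carboxypeptidase, had 372, 392.4 and 349 TPM in treated libraries and 447, 491 and 464 TPM in buffer libraries. Its groups did not overlap either, and its log2 fold change was -0.33 (SE 0.06), just outside the threshold (limma adjusted p = 0.051).

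CTSA and CTSH differed less. CTSA, whose product is a serine carboxypeptidase and also the protective protein of the lysosomal neuraminidase and beta-galactosidase, had 147, 150 and 143 TPM in treated libraries and 156, 161 and 158 TPM in buffer libraries. The treated libraries were all lower, and the difference of the means was -7.18% (log2 fold change -0.11, 95% interval -0.23 to 0.01, limma adjusted p = 0.29). CTSH, an aminopeptidase gene, was the least abundant tested member, with 7.5, 7.01 and 5.95 TPM in treated libraries and 8.12, 9.0 and 7.06 TPM in buffer libraries. Its groups overlapped, and its spread was the widest of the tested members, with a coefficient of variation of 11.6% in treated and 12.1% in buffer libraries (log2 fold change -0.21, 95% interval -0.50 to 0.07). CTSO, a cysteine cathepsin gene, was listed between 0.02 and 0.10 TPM in treated and between 0.04 and 0.07 TPM in buffer libraries. CTSF, another gene of that type, was listed at 0 in 5 libraries and at 0.02 TPM in buffer replicate 2. These values are too low for a comparison.

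In the whole-table fit 2 of the 8 tested members passed the threshold, 1 in each direction, while 1.37% of all tested genes passed (0.368% higher and 0.999% lower in treated cells). The groups did not overlap for 7 of the 8, of which 4 were higher and 3 lower, against 27.1% of all tested genes (7.00% higher and 20.1% lower). The median log2 fold change was -0.01 over the 8 and -0.06 over all tested genes. Since the members were chosen with this comparison in view, these counts are given only as a description.

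**Figure D2:**
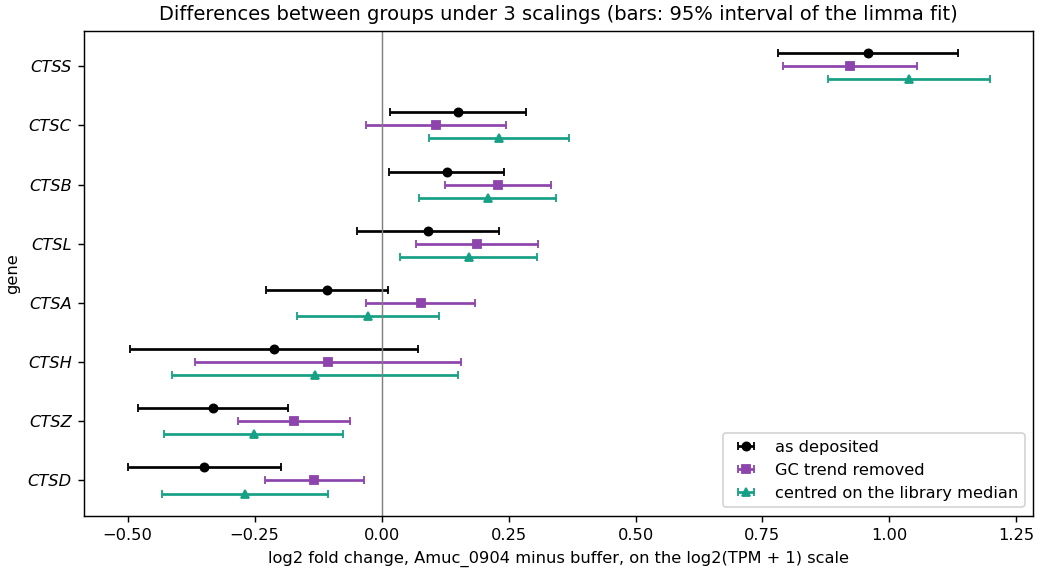
Log2 fold change (Amuc_0904 minus buffer, log2(TPM + 1) scale) of the 8 tested cathepsin genes with the 95% interval of the limma fit, for the values as deposited (circles), with each library's trend with GC content removed (squares) and after median centring of the libraries (triangles). CTSS lies between 0.92 and 1.04, CTSD lies at -0.35 as deposited and at -0.13 after GC removal, and CTSA turns its sign after GC removal.

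Ratios of 2 genes within a library do not depend on how that library was scaled as a whole, and they set some members apart from others. They are not corrected for the library trends with GC content, in which the members differ. After GC removal the log2 fold change was 0.23 for CTSB and 0.11 for CTSC, and -0.13 for CTSD and -0.17 for CTSZ. CTSB to CTSC was 12.9, 13.3 and 12.9 in treated libraries and 13.1, 13.6 and 13.2 in buffer libraries, the steadiest of all 28 ratios between tested members (coefficient of variation 1.85% over the 6 libraries). CTSZ to CTSD was nearly as steady, with 2.19, 2.18 and 2.15 in treated libraries and 2.11, 2.12 and 2.21 in buffer libraries. In both ratios the groups overlapped, as they did for CTSB to CTSL and CTSL to CTSC. In other ratios they did not overlap. CTSB to CTSD was 3.75, 3.69 and 3.98 in treated libraries, against 2.81, 2.57 and 2.81 in buffer libraries. CTSL to CTSS was 2.16, 2.07 and 2.01 in treated libraries, against 3.92, 4.0 and 3.88 in buffer libraries. The groups did not overlap in 21 of the 28 ratios. All 7 ratios with CTSS were among these, which only restates its large difference, seen when the family was selected. All 28 ratios reuse the same 8 genes, from a family selected on these TPM differences. The share among pairs of all tested genes was not computed, so the count is only a description. CTSH, with its wide spread, overlapped in its ratios to CTSD, CTSZ and CTSA. These ratios show unequal differences among the members and do not show which gene stayed the same.

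**Figure D3:**
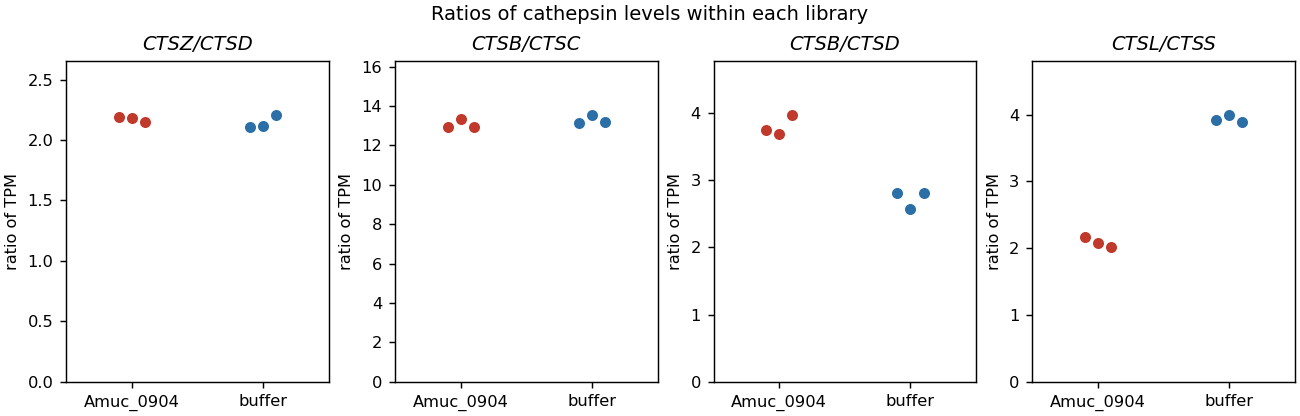
Ratio of the TPM of 2 cathepsin genes in each library (points; Amuc_0904 in red, buffer in blue), with vertical axes from 0. CTSZ/CTSD and CTSB/CTSC overlap between the groups, CTSB/CTSD is higher in every treated library (3.69 to 3.98 against 2.57 to 2.81), and CTSL/CTSS is lower in every treated library (2.01 to 2.16 against 3.88 to 4.0).

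The summed level of the 10 members was 1462, 1520 and 1439 TPM in treated libraries and 1526, 1597 and 1535 TPM in buffer libraries, so the groups were separated by a narrow gap. CTSB made up 44.1% ± 0.728 of the sum in treated and 38.2% ± 0.773 in buffer cells (SD, n = 3 each). CTSZ made up 25.2% ± 0.819 in treated and 30.1% ± 0.747 in buffer cells, and CTSD made up 11.6% ± 0.290 in treated and 14.03% ± 0.451 in buffer cells. CTSS remained a small share, with 1.75% ± 0.139 in treated and 0.821% ± 0.0347 in buffer cells. The order of levels was CTSB, CTSZ, CTSD, CTSA, CTSL, CTSC, CTSS and CTSH in both groups, and no neighbours in it overlapped within a group: the closest were CTSL and CTSC in treated libraries, where the lowest CTSL value was 51.4 TPM and the highest CTSC value 49.97 TPM.

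The groups also differed in how expression varied with the GC content of transcripts, and the members differed in GC content. The slope of log2(TPM + 1) with GC content, per 10 percentage points, was 0.03, 0.07 and -0.04 in Amuc_0904 replicates 1 to 3, against 0.07, 0.16 and 0.12 in buffer replicates 1 to 3. The longest annotated transcript was 39.5% GC for CTSS and 38.2% for CTSC, 52.5% for CTSL, 52.8% for CTSB and 53.3% for CTSH. It was 58.3% for CTSZ, 60.7% for CTSA and 64.0% for CTSD, against a median of 49.2% over the tested genes. Ordered by slope, from Amuc_0904 replicate 3 to buffer replicate 2, the TPM of CTSA and of CTSZ was higher at every step (143, 147, 150, 156, 158 and 161 for CTSA) and that of CTSS lower at every step. For CTSD 14 of the 15 pairs of libraries stood in rising order, for CTSH 12, for CTSB 4, and for CTSC and CTSL 1 each. An exact order, rising or falling, was found for 2.59% of all tested genes. Slope and treatment separate the libraries in the same way, so they cannot be told apart in the order alone. In slope the groups nearly tied where they met, with 0.0713 in Amuc_0904 replicate 2 and 0.0737 in buffer replicate 1.

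With each library's GC trend removed, CTSS had a log2 fold change of 0.92 (SE 0.06, limma adjusted p = 0.0013). CTSD was at -0.13 (SE 0.04, limma adjusted p = 0.19) and CTSZ at -0.17 (SE 0.05, adjusted p = 0.15), so that CTSD no longer passed. CTSB was at 0.23 (SE 0.04, adjusted p = 0.074), CTSL at 0.19 (adjusted p = 0.16) and CTSA at 0.08 (adjusted p = 0.44). CTSC was at 0.11 (limma adjusted p = 0.40, 95% interval -0.03 to 0.24) and CTSH at -0.11 (adjusted p = 0.66). In this fit 1 of the 8 members passed, against 0.827% of all genes with a GC value. Because removal also sets the library means equal, it was repeated with the means kept, where CTSS was at 0.85, CTSC at 0.04, CTSZ at -0.24 (limma adjusted p = 0.045) and CTSD at -0.20 (adjusted p = 0.090).

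**Figure D4:**
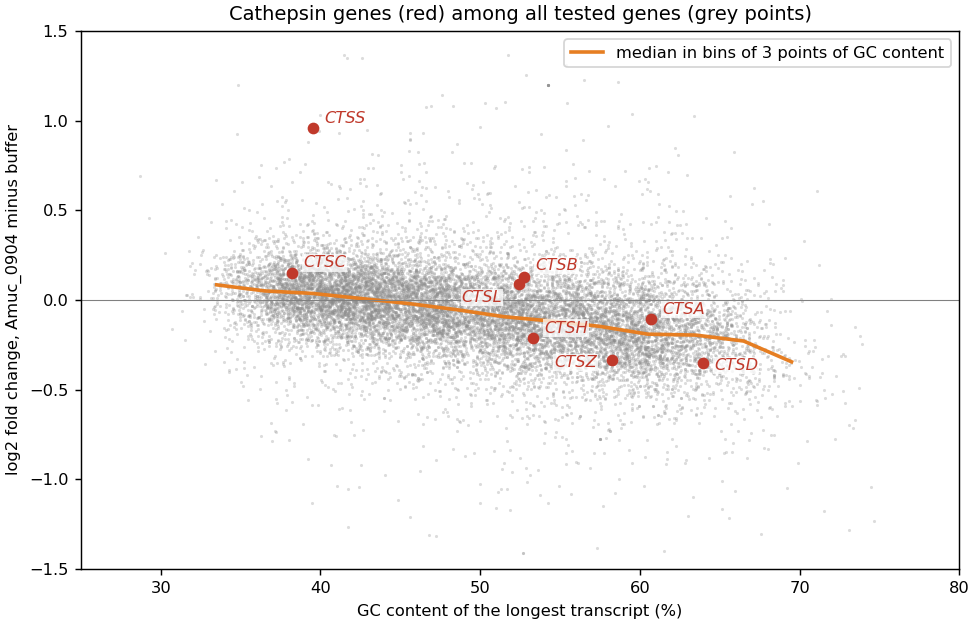
Log2 fold change (Amuc_0904 minus buffer) against the GC content of the longest transcript for the 14277 tested genes with a GC value (grey; 32 lie outside the drawn range), with the 8 cathepsin genes in red and the median in bins of 3 percentage points in orange. CTSS lies far above the median line at its GC content, CTSB and CTSL lie above the median line, and CTSD and CTSZ lie below it in a region where the line itself is negative.

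The regions upstream of the start sites are shown for CTSD and CTSZ, which differed together, and for CTSA. The promoter table from RefSeq (GRCh38.p14) matched 7 members (CTSA, CTSC, CTSD, CTSF, CTSH, CTSL and CTSZ), and upstream regions of CTSB, CTSO and CTSS were not analysed here. The 250 bases before each RefSeq start were searched on both strands for the E-box CACGTG, the core of the element that the lysosomal regulators TFEB and TFE3 bind. CTSD held 1 match, 47 bases upstream of its RefSeq start, and CTSA held 2, at 42 and 25 bases from its own. Both stretches lie inside the GENCODE 29 bounds of their genes, where other annotated transcripts begin further upstream, so these RefSeq starts are internal ones. Of the 7 windows, that of CTSZ alone overlapped no annotated coding or untranslated segment of its own gene. Both are shown as 30 bases in the direction of transcription, with the E-box in capitals; the CTSD stretch is chr11:1763957-1763986 on the minus strand and the CTSA stretch is chr20:45891290-45891319 on the plus strand.
CTSD: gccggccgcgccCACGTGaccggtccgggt
CTSA: tgtCACGTGgcgccggagttCACGTGactc
All 3 matches are CACGTGAC in one direction or the other, an extension that the E-box search contains. CTSF, the gene near 0 in these cells, also held 2 E-boxes, and CTSC, CTSH, CTSL and CTSZ held none. Among all 35116 windows, 6.34% held CACGTG and 2.16% held CACGTGAC.

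The upstream region of CTSZ held no E-box and 5 matches to the SP1 box GGGCGG, shown in capitals on either strand. Its 250 bases are chr20:59007255-59007504 on the minus strand, printed in the direction of transcription.
CTSZ: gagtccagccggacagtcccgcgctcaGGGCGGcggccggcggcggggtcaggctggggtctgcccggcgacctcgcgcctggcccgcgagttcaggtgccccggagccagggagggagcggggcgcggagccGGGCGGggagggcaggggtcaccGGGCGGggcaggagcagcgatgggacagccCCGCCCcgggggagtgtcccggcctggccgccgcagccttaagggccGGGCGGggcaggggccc
SP1 boxes were in 6 of the 7 matched windows, CTSF being the exception, and in 42.6% of all windows. The window of CTSZ was 81.2% GC and that of CTSD 79.2%, against a median of 58.0% over all windows. Those of CTSH, CTSL, CTSA, CTSC and CTSF were 74.4%, 69.2%, 65.6%, 58.4% and 56.4% GC. The SP1 box holds only G and C, and its share of all windows was not matched for GC content. None of the 7 windows held the kB motif (GGG and TTCC with any 3 bases between), the interferon response core (GAAA repeated after any 2 bases) or TATAAA, which were in 5.67%, 3.02% and 10.7% of all windows. A match is a run of letters and not a bound site. The CTSD window held an E-box and the CTSZ window none, but the 2 windows are unlike, since only that of CTSD overlapped annotated segments of its gene. The part of these motifs in the levels was not tested.

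In the GRCh38 annotation of GENCODE 29, CTSS (ENSG00000163131) lies on chromosome 1 from 150730196 to 150765957 on the minus strand and overlaps no annotated gene. Its neighbour CTSK begins 30250 bases beyond it. CTSZ (ENSG00000101160), on chromosome 20 from 58995185 to 59007247, overlaps none either. CTSD (ENSG00000117984), on chromosome 11 from 1752752 to 1764573, overlaps 2 genes on its own strand and 1 on the other, the most abundant of them (ENSG00000250644) at 2.90 to 4.84 TPM in treated and 5.24 to 6.28 TPM in buffer libraries. CTSA overlaps 3 genes on the other strand, among them PLTP, with 24.97 to 25.6 TPM in treated and 26.5 to 28.3 TPM in buffer libraries. Reads of the 2 genes on the strand of CTSD cannot be separated by strand under any protocol. For neighbours on the other strand the protocol is unknown, so their reads cannot be separated with certainty either. The 7 CTSL pseudogenes in the table were listed at 0 in every library.

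Of 5 cathepsin genes outside the members, 2 could be tested and neither passed. CTSV, which encodes the closest human relative of cathepsin L, had 19.1, 17.3 and 18.2 TPM in treated libraries and 21.8, 16.8 and 18.0 TPM in buffer libraries (log2 fold change -0.04, 95% interval -0.29 to 0.20). All treated libraries thus had more CTSS than CTSV, and all buffer libraries less. CTSK, known as the collagenase of osteoclasts, was between 0.98 and 1.53 TPM in treated and between 0.70 and 1.43 TPM in buffer libraries. The aspartic cathepsin gene CTSE, the serine protease gene CTSG and CTSW stayed at or below 0.51 TPM.

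None of the inhibitor genes passed the threshold. Of 20 genes for cystatins and related inhibitors 6 were tested, with 1 log2 fold change above 0, 5 below and a median of -0.09, which was 0.04 after GC removal. The most abundant, CST3 (cystatin C, a secreted inhibitor of cysteine cathepsins), had 637, 586 and 415 TPM in treated libraries and 678, 754 and 728 TPM in buffer libraries. All treated libraries were lower, with replicate 3 far below the other treated ones (log2 fold change -0.42, SE 0.14, limma adjusted p = 0.15). Without that library the log2 fold change was -0.23. CSTB (stefin B, an inhibitor inside the cell) had 355, 369 and 337 TPM in treated and 371, 374 and 379 TPM in buffer libraries (log2 fold change -0.08, limma adjusted p = 0.43), and was at 0.02 after GC removal.

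Genes for cathepsin activation and delivery did not pass either. Among 6 activators and complex partners the median log2 fold change was -0.07 (0.04 after GC removal), with 2 above and 4 below 0. Of the 4 below, 2 were lower without overlap of the groups, against 20.1% of all tested genes. The 2 above 0 were also the most abundant, ANXA2 (5385 ± 259 TPM in treated and 5007 ± 263 TPM in buffer cells) and S100A10 (796 ± 116 TPM in treated and 736 ± 36.5 TPM in buffer cells, SD, n = 3 each). They encode the subunits of a cell surface complex that binds procathepsin B. All 16 genes of lysosomal sorting were tested, 0 passed, and the median was -0.19, with 4 above and 12 below 0. After GC removal that median was -0.08. Without overlap of the groups 9 of the 16 were lower and 2 higher, against 20.1% and 7.00% of all tested genes. The most abundant 2, M6PR and VPS29, were both among the 4 above 0. The cation-dependent mannose 6-phosphate receptor M6PR, which carries new lysosomal enzymes, had 155 ± 3.62 TPM in treated and 148 ± 2.98 TPM in buffer cells (log2 fold change 0.07, limma adjusted p = 0.53). VPS29, a retromer subunit, had 105 ± 4.55 TPM in treated and 100.1 ± 7.38 TPM in buffer cells.

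The other lysosomal peptidases were all below 0 without passing (6 of 7 tested, median -0.09, and -0.02 after GC removal). Over all genes fitted the medians were -0.06 and -0.0017, and the share of them below 0 was not computed. DPP7, a dipeptidyl peptidase, had 131, 141 and 112 TPM in treated and 147, 147 and 150 TPM in buffer libraries (log2 fold change -0.22, limma adjusted p = 0.20), and was at -0.12 without Amuc_0904 replicate 3 and at 0.03 after GC removal. TPP1, a tripeptidyl peptidase, had 37.2, 39.6 and 50.5 TPM in treated and 54.4, 54.3 and 50.7 TPM in buffer libraries, so that its groups nearly touched (log2 fold change -0.33, limma adjusted p = 0.15). Of 15 tested regulators of lysosomal genes in the TFEB and TFE3 pathway 0 passed, 4 were above and 11 below 0, and the median was -0.11, which was 0.02 after GC removal. The most abundant were LAMTOR1, a lysosomal anchor of mTORC1 signalling (140 ± 8.38 TPM in treated and 147 ± 6.97 TPM in buffer cells), and RRAGA, a Rag GTPase (55.3 ± 1.84 TPM in treated and 55.7 ± 3.16 TPM in buffer cells).

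The MHC class II pathway, in which cathepsin S works in antigen-presenting cells, had 13 tested genes of 16, and 0 passed. The median log2 fold change was 0.07, and 0.17 after GC removal. CD74, the invariant chain, had 182, 191 and 181 TPM in treated and 175, 185 and 165 TPM in buffer libraries, and the groups overlapped (log2 fold change 0.08, 95% interval -0.06 to 0.22, limma adjusted p = 0.51). IFI30, a lysosomal thiol reductase induced by interferon gamma, had 95.5 ± 3.88 TPM in treated and 92.1 ± 6.16 TPM in buffer cells. Of 10 tested interferon and NF-kB factors 1 rose and 1 fell, with a median of 0.05. Over all tested genes 0.368% rose and 0.999% fell. After GC removal 2 of the 10 rose and 0 fell, with a median of 0.09, while 0.827% of all genes fitted passed in either direction. This list too was chosen with earlier results of these data known, so its counts are only a description. NFKB2, an NF-kB subunit, had 26.9, 27.9 and 26.6 TPM in treated and 19.4, 19.1 and 21.7 TPM in buffer libraries (limma adjusted p = 0.047). CEBPB had 17.4, 16.7 and 11.9 TPM in treated and 27.3, 26.1 and 24.0 TPM in buffer libraries (limma adjusted p = 0.048). NFKB2 lost its call without any 1 of the 6 libraries, and CEBPB without any but Amuc_0904 replicate 3, with limma adjusted p up to 0.17 for each. After GC removal CEBPB did not pass (limma adjusted p = 0.14) and NFKB2 did (limma adjusted p = 0.024).

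Among 13 tested substrates and targets of cathepsins 2 rose, 1 fell and the median was 0.02. Over all tested genes 0.368% rose and 0.999% fell. The list was chosen with earlier results of these data known, so its counts are only a description. GZMB encodes granzyme B, which cathepsin C activates in lymphocytes, and had 14.99, 12.8 and 10.45 TPM in treated and 5.68, 4.04 and 4.5 TPM in buffer libraries (log2 fold change 1.26, SE 0.15, limma adjusted p = 0.013). CDH1, which encodes E-cadherin, had 3.78, 3.57 and 4.06 TPM in treated and 6.71, 8.33 and 5.99 TPM in buffer libraries (log2 fold change -0.73, SE 0.13, limma adjusted p = 0.044). In both genes the groups lay apart. GZMB did not pass without buffer replicate 2 (limma adjusted p = 0.061). CDH1 passed in none of the fits that left out 1 library (limma adjusted p up to 0.14) and not after GC removal (0.054).

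The genes whose 6 values lay nearest to those of CTSS, each centred on its own mean on the log2(TPM + 1) scale, were SERPINA1 (root mean square distance 0.12), IL23A (0.13), TMEM265 (0.14), BIRC3 (0.14) and LTB (0.15), among genes with a symbol and a mean of at least 5 TPM. SERPINA1 encodes the serine protease inhibitor alpha-1 antitrypsin, IL23A and LTB are cytokine genes, and BIRC3 is a member of the inhibitor of apoptosis family. IL23A had 13.9 ± 0.814 TPM in treated and 7.95 ± 0.572 TPM in buffer cells (SD, n = 3 each; limma adjusted p = 0.014). Likeness over 6 libraries in 2 groups mostly reflects a difference between the groups of a similar size.

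**Figure D5:**
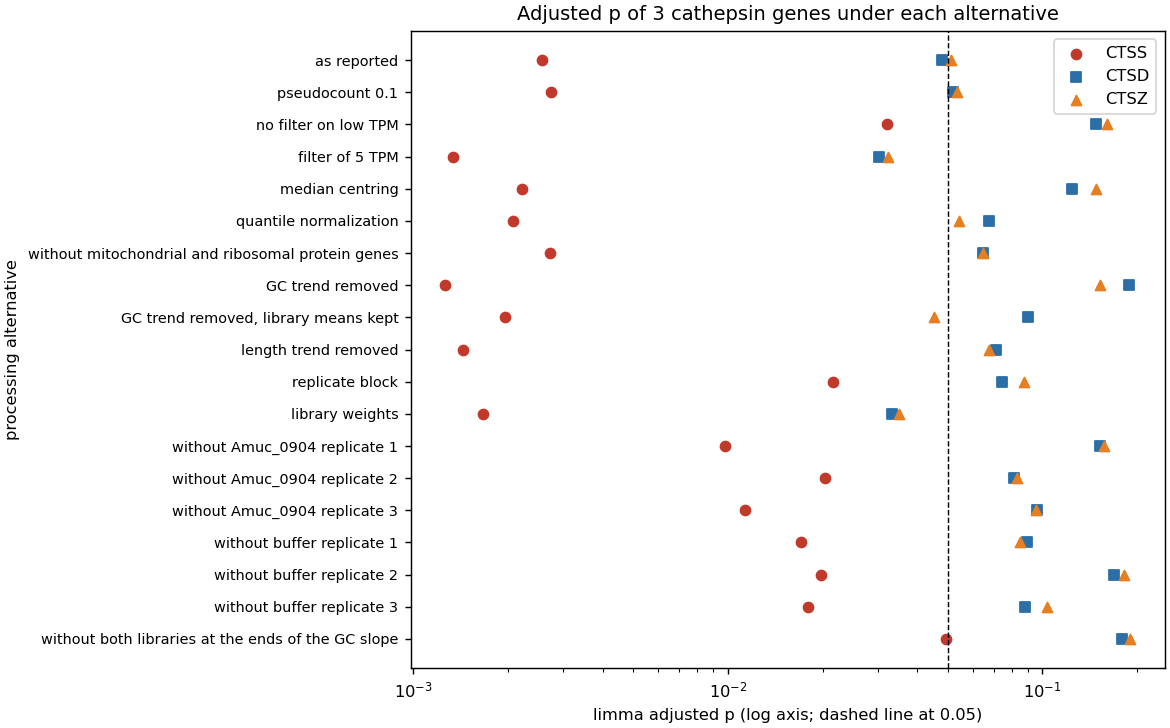
Limma adjusted p (log axis) of CTSS, CTSD and CTSZ for the values as reported and under each processing alternative, with a dashed line at 0.05. CTSS is below the line throughout, with its highest value (0.0495) when 2 libraries are left out, whereas CTSD and CTSZ lie close to the line or above it.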

How the data were processed

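The authors deposited 1 table of gene-level TPM for 6 libraries, and RSEM did the quantification per the labels. HISAT2 and StringTie also stand in the submitters' processing notes, as does a mouse build (GRCm38.p6), although the gene identifiers are human. TPM keeps no read number, so depth is unknown and no counting interval is given; between 14244 and 14586 genes per library had at least 1 TPM. The fit used log2(TPM + 1) of the genes that reached 1 TPM in at least 3 libraries. The test was limma's moderated test (version 3.58.1, R 4.3.3; two-sided, prior variance following the mean, Benjamini-Hochberg adjustment over all genes fitted), and the scripts were tested on simulated data. The longest GENCODE 29 transcript of a gene gave its GC content and length, for 99.0% of tested genes, and trends were removed by loess with a span of 0.3. Motifs were searched in RefSeq windows. Figures used matplotlib 3.10.9.

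The members and all lists were chosen with earlier results of these data known. All members are named; of each related list, up to 4 genes past the threshold or, with none, the 2 most abundant are named, besides marker genes and the 5 genes nearest to CTSS. For 1 gene of the substrate list that this rule names, the values are not reported here. Alternatives covered the pseudocount, filters, scalings, GC content, length, a replicate block, library weights, each library left out and a stricter threshold.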

Additional observations from a re-analysis of the deposited data

How the results depend on the processing

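CTSS passed under every alternative run, and the other members kept their direction except CTSA, which was at 0.077 after GC removal and at 0.0067 with library means kept. Against 2 members past the threshold, CTSS and CTSD, there was 1 with a pseudocount of 0.1, no filter, centring, quantile normalization, mitochondrial and ribosomal protein genes left out, GC or length trend removed, the stricter threshold of 0.01, and without any single library (1 to 1). CTSZ passed beside both with a filter of 5 TPM or library weights, and in place of CTSD after GC removal with means kept. Over all genes 197 passed, against 9 with no filter, 432 with a filter of 5 TPM, 85 with centring, 102 with quantile normalization, 118 and 98 with the GC and the length trend removed, 427 with library weights, 29 at the threshold of 0.01 and 35 to 112 without single libraries. Of those calls 73.1% were lower in treated cells, against 49.4% with centring, 54.9% with quantile normalization, 33.9% after GC removal and 51.0% after length removal. Of the related lists 5 genes passed, against 0 with no filter and at the threshold of 0.01, 2 with centring, quantile normalization or length removal, 3 without mitochondrial and ribosomal protein genes and 0 to 4 without single libraries. With Amuc_0904 replicate 3 and buffer replicate 2 (the extremes of the GC slope) both left out, an alternative chosen after seeing the data like the GC removal with means kept, 16 genes passed in all, 1 member and 0 related genes. The causes of these differences were not tested.

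With the replicate number as a block 80 genes passed, 1 member (CTSS, adjusted p = 0.022) and 2 related genes. Deviations of same-numbered libraries correlated at -0.03, 0.08 and -0.09, and Amuc_0904 replicate 3 correlated best with buffer replicate 1 (0.14), so the numbers were not taken to pair the samples.

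Directions also turned for genes of the related lists that had not passed; values are given for those named in the text. After GC removal CSTB was at 0.025, DPP7 at 0.032, LAMTOR1 at 0.060 and RRAGA at 0.085, and with means kept RRAGA was at 0.016 and VPS29 at -0.040. CTSV was at 0.038 with centring, 0.037 with quantile normalization and 0.040 after length removal. LAMTOR1 was at 0.0090 with centring. RRAGA was at 0.072 with centring, 0.057 with quantile normalization, 0.018 without mitochondrial and ribosomal protein genes and 0.025 after length removal. Over the fits without 1 library, CTSK lay between -0.017 and 0.24, CTSV between -0.12 and 0.061, RRAGA between -0.048 and 0.033 and S100A10 between -0.0080 and 0.19. With the extremes of the GC slope both left out, CTSK was at -0.11, LAMTOR1 at 0.0037, S100A10 at -0.013 and VPS29 at -0.012.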
